A study of Homo sapiens with 6 samples.

Results

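The genes described here encode the nuclear subunits of the mitochondrial respiratory chain and of ATP synthase. They were followed in A375, an established human melanoma cell line, in cultures given hMGL, an engineered human enzyme that degrades methionine, for 24 h (treated replicates 4, 5 and 6) and in cultures left untreated (control replicates 1, 2 and 3). Per the labels, the 6 cultures were independent, all 6 came from the same line, and no other agent or genetic change was named. Members were taken by symbol: SDHA, SDHB, SDHC, SDHD, CYC1 and the protein-coding genes of the NDUFA, NDUFB, NDUFC, NDUFS, NDUFV, UQCR, COX4 to COX8, ATP5F, ATP5M and ATP5P families, without the NDUFAF genes and without pseudogenes. This gave 90 of the 19885 protein-coding genes with transcripts in the tables: 38 of complex I, 4 of complex II, 10 of complex III, 19 of complex IV and 19 of ATP synthase, also called complex V.

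Complex I takes electrons from NADH and complex II takes them from succinate. Both pass them by way of ubiquinone to complex III, from where cytochrome c carries them to complex IV, the oxidase that reduces oxygen. Complexes I, III and IV pump protons across the inner mitochondrial membrane, and ATP synthase lets them flow back through its membrane part to drive ATP synthesis in its F1 head. Most subunits are encoded in the nucleus and imported, and a few central ones of complexes I, III, IV and V are encoded in mitochondrial DNA.

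Treated libraries held 50760266 to 53682075 estimated counts and control libraries 53441686 to 59954677. The common coefficient of variation between replicates was 0.074. SOX10, a factor of the melanocyte lineage, stood at 346 to 357.5 CPM in treated and 396 to 453 CPM in control libraries and MITF at 41.0 to 41.7 CPM in treated and 42.0 to 45.7 CPM in control libraries, while the pigment genes MLANA, PMEL, TYR and DCT reached at most 2.16 CPM. S100B, another marker of the lineage, stood at 4.89 to 7.07 CPM in treated and 37.7 to 39.3 CPM in control libraries. S100A1, also of the list, stood at 36.2 to 37.9 CPM in treated and 64.7 to 74.6 CPM in control libraries. PMEL was higher in treated libraries, at 1.97 to 2.16 CPM, against 0.511 to 0.6105 CPM in control libraries. TYR and DCT were also higher, and MLANA was lower. The part of these markers in the results was not tested. The sum of 5 leukocyte markers was 2.68 to 3.37 CPM in treated and 6.76 to 7.68 CPM in control libraries. That of 5 fibroblast markers was 3.14 to 3.61 CPM in treated and 7.765 to 8.03 CPM in control libraries. That of 3 endothelial markers was 2.57 to 2.93 CPM in treated and 0.832 to 1.47 CPM in control libraries. The leukocyte and fibroblast sums were thus lower and the endothelial sum higher in treated libraries, and their part in the results was not tested. The epithelial list summed to 353 to 369.6 CPM in treated and 353 to 362 CPM in control libraries, nearly all of it the keratins KRT18 and KRT8, with EPCAM at most 0.200 CPM. All but 6 members had every transcript of GENCODE 29 in the tables. The exceptions, among them SDHA, SDHD and COX6B1, lack 1 or 2, and for COX6B1 the missing one is the coding transcript that RefSeq also has.

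Most subunit mRNAs were lower in treated cells. Of the 86 members with enough counts to test, 63 fell, 12 rose and 11 did not pass the threshold (edgeR quasi-likelihood test, Benjamini-Hochberg adjusted p under 0.05 over all 22580 genes tested). Many genes moved in this comparison: 69.4% of all genes tested passed, 34.5% fell and 34.9% rose, and among protein-coding genes 40.3% fell and 38% rose. Of the tested members, 73.3% fell and 13.95% rose. The median log2 fold change, treated over control, was −0.41 over the members and −0.03 over protein-coding genes. The CPM of all 3 treated libraries lay below those of all 3 control libraries for 63 members and above them for 13, and overlapped for 10. Over all genes tested, 36.5% were separated downward and 36.8% upward. In bulk RNA, fewer cells of a type and less RNA per cell cannot be told apart, and every change is relative to the typical gene of the library.

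Member mRNAs together took 0.545%, 0.543% and 0.540% of the estimated counts in treated libraries 4, 5 and 6, against 0.701%, 0.698% and 0.700% in control libraries 1, 2 and 3. Summed over complex I, the treated libraries had 1966, 1983 and 1990 CPM, against 2493, 2400 and 2532 CPM in control libraries, 20.0% lower on average. The sum for complex II was 204, 211 and 208 CPM in treated libraries, against 374, 355 and 374.6 CPM in control libraries, 43.6% lower. For complex III it was 728, 764 and 743 CPM in treated libraries, against 1152, 1112 and 1149 CPM in control libraries, 34.5% lower. For each of these complexes the treated libraries lay wholly below the control libraries. The complex IV sum was 923, 929.9 and 935 CPM in treated libraries, against 1121, 1078 and 1149 CPM in control libraries, 16.7% lower, and that of ATP synthase was 1683, 1726 and 1738 CPM in treated libraries, against 2494, 2406 and 2505 CPM in control libraries, 30.5% lower. These groups did not overlap either. In summed TPM, which weights short and long transcripts alike, the sums were 14.3%, 35.7%, 28.3%, 12.8% and 24.4% lower for complexes I to V. The sums are given without a test because the members are a chosen list.

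**Figure D1:**
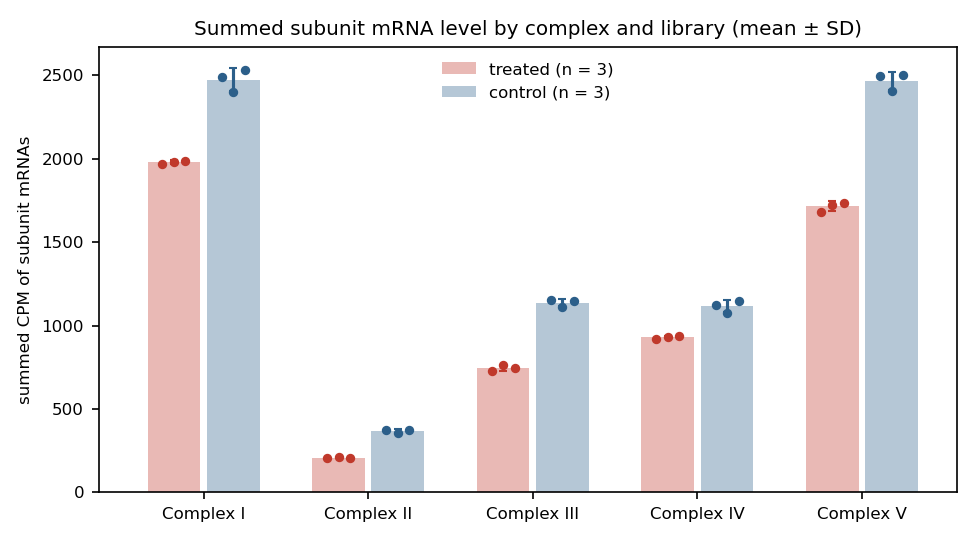
Summed CPM of the subunit mRNAs of each complex, treated (left bar) and control (right bar); points are libraries, bars are means and error bars are SD over 3 libraries. The 3 treated libraries sit below the 3 control libraries for every complex, with means of 207 CPM in treated and 368 CPM in control cells for complex II, and 1715 CPM in treated and 2468 CPM in control cells for complex V.

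Complex I, the NADH dehydrogenase, had 26 of 38 members that fell, 4 that rose and 8 that did not pass. Among the 7 core subunits, which carry the flavin and the iron-sulfur clusters, 5 fell and 2 did not pass, with a median log2 fold change of −0.54. Of the 31 accessory subunits, 21 fell, 4 rose and 6 did not pass, with a median of −0.23. NDUFAB1, the mitochondrial acyl carrier protein, which is both an accessory subunit and a part of mitochondrial fatty acid synthesis, had 28.6, 28.0 and 29.6 CPM in treated libraries, against 62.1, 56.2 and 57.0 CPM in control libraries (log2 fold change −1.02 ± 0.04 SE, adjusted p = 4.65e-13 in edgeR). NDUFB10, an accessory subunit of the membrane arm, had 76.9, 80.7 and 80.2 CPM in treated libraries, against 166, 150.3 and 159 CPM in control libraries (−0.999 ± 0.04, adjusted p = 7.69e-14 in edgeR). NDUFV2, an iron-sulfur subunit of the NADH-oxidising tip, had 29.6, 32.2 and 31.1 CPM in treated libraries, against 62.3, 59.3 and 63.4 CPM in control libraries (−0.99 ± 0.04, adjusted p = 3.95e-13 in edgeR). In each of the 3 the groups were far apart.

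The other core subunits differed in how far they moved. NDUFS1, the largest core subunit, averaged 65.1 ± 1.70 CPM in treated and 117 ± 3.01 CPM in control cells (SD, n = 3 each), a log2 fold change of −0.84. NDUFV1, which binds NADH and the flavin, averaged 109 ± 2.49 CPM in treated and 154 ± 6.25 CPM in control cells, a log2 fold change of −0.50. In TPM its groups overlapped and the call was lost (−0.20, adjusted p = 0.0571 in limma on log2(TPM + 1)). NDUFS7 and NDUFS8, which hold the last iron-sulfur clusters before ubiquinone, did not pass, at −0.05 (adjusted p = 0.283 in edgeR) and −0.01 (adjusted p = 0.768 in edgeR).

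Of the 4 complex I members that rose, NDUFC2-KCTD14, at 2.68 ± 0.355 CPM in treated and 1.48 ± 0.321 CPM in control cells, is a readthrough transcript of NDUFC2 and its neighbour, and reads of shared exons may have been divided between them. NDUFA10, an accessory subunit, had 38.0, 32.5 and 38.9 CPM in treated libraries, against 29.7, 30.9 and 30.3 CPM in control libraries (0.27 ± 0.06, adjusted p = 0.00324 in edgeR). NDUFA13, also known as GRIM-19, had 240.5, 244 and 250.1 CPM in treated libraries, against 210.0, 203 and 215 CPM in control libraries (0.23 ± 0.03, adjusted p = 2.80e-06 in edgeR). NDUFB7 rose by 0.15 on the log2 scale. In each of the 4 the treated libraries were all above the control libraries.

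All 4 subunits of complex II, succinate dehydrogenase, fell. SDHA, the flavin-bearing subunit that oxidises succinate (ENSG00000073578, chromosome 5, 218241 to 256700, GRCh38), had 63.8, 68.1 and 65.9 CPM in treated libraries, against 149.7, 140.0 and 147 CPM in control libraries (log2 fold change −1.15 ± 0.04, adjusted p = 7.44e-15 in edgeR). SDHB, the iron-sulfur subunit, had 73.3, 73.3 and 72.6 CPM in treated libraries, against 132, 129.7 and 134 CPM in control libraries (−0.85 ± 0.03, adjusted p = 5.24e-14 in edgeR). The membrane anchors also fell: SDHC, at 30.9 ± 0.722 CPM in treated and 41.3 ± 1.91 CPM in control cells, by 0.42, and SDHD, at 37.6 ± 0.978 CPM in treated and 48.8 ± 2.28 CPM in control cells, by 0.38 on the log2 scale. Whether the anchors and the catalytic subunits differ in their change was not tested. SDHA has near-identical pseudogene copies, and these took 902 estimated counts in treated and 883 in control libraries on average, beside 3342 in treated and 7712 in control libraries for the gene. With the copies added to the gene, SDHA had a log2 fold change of −0.96, a fall of less than 2-fold, and all 86 member calls were the same.

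Complex III, the cytochrome bc1 complex, held 3 of the 7 members that fell at least 2-fold. UQCRC1, a core subunit on the matrix side (ENSG00000010256, chromosome 3, 48599002 to 48610976), had 48.2, 47.2 and 47.7 CPM in treated libraries, against 149, 143 and 145 CPM in control libraries, 3.06-fold lower (log2 fold change −1.61 ± 0.03, adjusted p = 2.29e-17 in edgeR). UQCRC2, the other core subunit, had 46.8, 49.5 and 47.6 CPM in treated libraries, against 116, 111 and 117 CPM in control libraries (−1.26 ± 0.04, adjusted p = 2.25e-15 in edgeR). UQCRB, a small subunit near the ubiquinone site, had 88.7, 94.7 and 88.2 CPM in treated libraries, against 215, 203 and 214 CPM in control libraries (−1.22 ± 0.04, adjusted p = 2.68e-15 in edgeR). The treated libraries had less than the lowest control library in each case. CYC1, cytochrome c1, which hands electrons to cytochrome c, averaged 58.8 ± 1.94 CPM in treated and 105 ± 1.70 CPM in control cells, a log2 fold change of −0.83. UQCR11, UQCRQ, UQCR10 and UQCRH fell by 0.89, 0.51, 0.27 and 0.20 on the log2 scale, the last with a call that was lost in TPM. The size for UQCR11 depended on the scale, at −0.35 on log2(TPM + 1) and −0.48 with the offset for effective length.

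The Rieske iron-sulfur protein UQCRFS1 stood apart from most of its partners, with 104, 113 and 110.2 CPM in treated libraries, against 89.8, 85.7 and 86.9 CPM in control libraries (log2 fold change 0.32 ± 0.04, adjusted p = 3.98e-07 in edgeR). It was the only complex III member that rose, and its groups did not overlap. UQCRHL, a near-copy of UQCRH at 0.529 ± 0.102 CPM in treated and 0.493 ± 0.0378 CPM in control cells, did not pass (adjusted p = 0.726 in edgeR), and reads shared with UQCRH make its level uncertain.

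**Figure D2:**
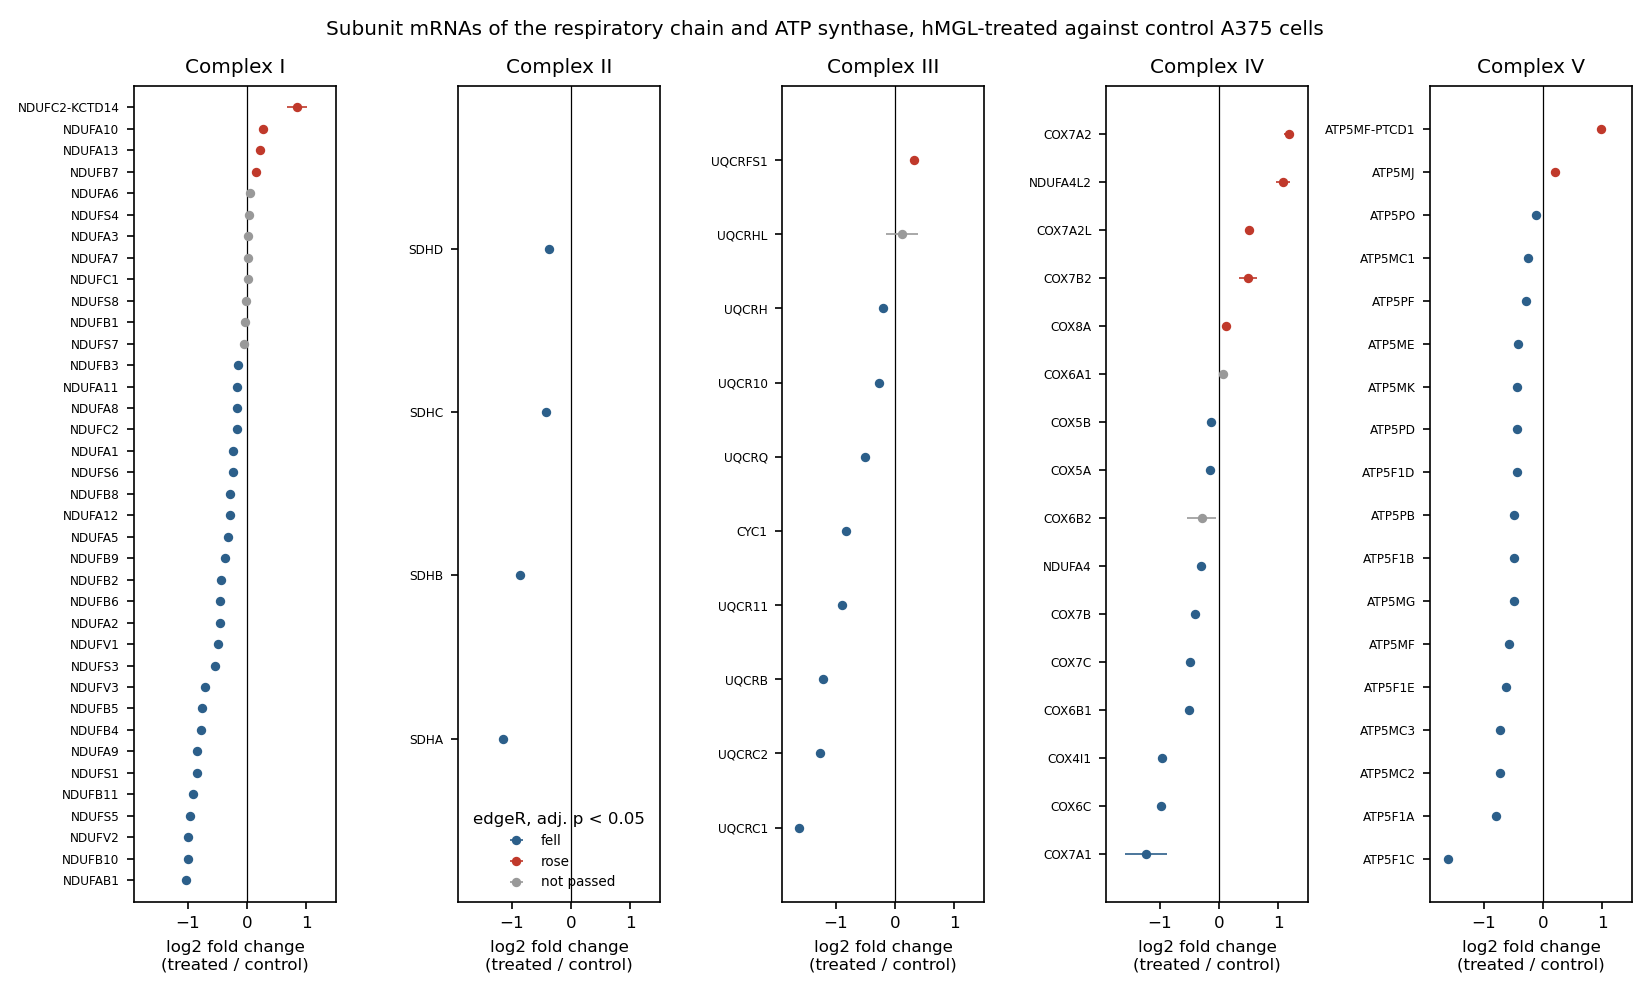
Log2 fold change, treated over control, of 85 of the 86 tested members by complex, with SE bars; blue points fell, red points rose and grey points did not pass edgeR at an adjusted p of 0.05. Values run from −1.61 for UQCRC1 to 1.18 for COX7A2, and complex II lies wholly below 0.

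Complex IV was mixed, with 9 of 16 tested members that fell, 5 that rose and 2 that did not pass. COX4I1, the broadly expressed form of the largest nuclear subunit, had 120.4, 123 and 122 CPM in treated libraries, against 243, 225 and 247 CPM in control libraries (log2 fold change −0.97 ± 0.04, adjusted p = 5.14e-14 in edgeR). COX4I2, the alternative form known from lung and low oxygen, was at 0 in all 6 libraries, and so were COX6A2 and COX8C, forms known from muscle and testis. A count of 0 allows up to 0.0591 CPM in the smallest library, for counting error only. COX6C averaged 29.3 ± 0.595 CPM in treated and 57.9 ± 4.12 CPM in control cells (−0.98), but most of its counts lay in a transcript annotated as a target of nonsense-mediated decay, and over coding transcripts alone the call was lost (−0.17, adjusted p = 0.379 in edgeR). COX6B1, COX7C, COX7B and NDUFA4 fell by 0.50, 0.48, 0.40 and 0.31 on the log2 scale. COX5A and COX5B, which sit next to the catalytic core, fell by 0.16 and 0.14, and both calls were lost with library totals alone (adjusted p = 0.068 and 0.14 in edgeR) and in TPM (adjusted p = 0.499 and 0.697 in limma on log2(TPM + 1)).

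Several complex IV genes come as pairs of a common and a tissue-limited or stress-linked form. NDUFA4L2, a relative of NDUFA4 known as a target of hypoxia-inducible factor, had 6.72, 6.17 and 6.75 CPM in treated libraries, against 3.27, 2.5 and 3.5 CPM in control libraries (log2 fold change 1.08 ± 0.12, adjusted p = 2.63e-07 in edgeR). NDUFA4 itself had 40.5, 39.5 and 40.8 CPM in treated libraries, against 49.2, 49.8 and 50.5 CPM in control libraries. In CPM the rare form was thus higher and the common form lower in every treated library. In TPM the NDUFA4 groups overlapped, with 57.1, 49.0 and 47.9 TPM in treated libraries, against 57.5, 60.6 and 52.0 TPM in control libraries, and its call was lost (adjusted p = 0.209 in limma on log2(TPM + 1)). NDUFA4L2 stayed below NDUFA4 in mean TPM, at 6.32 against 51.3 in treated and 2.77 against 56.7 in control cells. COX7A2L, which joins complexes III and IV in supercomplexes, had 90.1, 95.1 and 98.6 CPM in treated libraries, against 66.3, 66.1 and 67.9 CPM in control libraries (0.50 ± 0.04, adjusted p = 1.03e-09 in edgeR). COX7B2, known from testis, averaged 2.62 ± 0.249 CPM in treated and 1.87 ± 0.219 CPM in control cells (0.49). COX7A1, the muscle form, was near the floor at 0.238 ± 0.105 CPM in treated and 0.560 ± 0.108 CPM in control cells, and its call (adjusted p = 0.00455 in edgeR) was lost in DESeq2 (adjusted p = 0.0511). COX8A rose by 0.11, a call that was lost in TPM, and COX6A1 (0.06) and COX6B2 (−0.29) did not pass.

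COX7A2 had the highest log2 fold change of all members, with 15.7, 16.9 and 17.6 CPM in treated libraries, against 8.50, 6.72 and 6.98 CPM in control libraries (1.18 ± 0.09, adjusted p = 4.34e-09 in edgeR). The rise lay in a single transcript annotated as a target of nonsense-mediated decay, ENST00000459637, which averaged 12.1 CPM in treated and 2.75 CPM in control cells. Over coding transcripts alone the log2 fold change was 0.06 and the call was lost (adjusted p = 0.758 in edgeR).

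**Figure D3:**
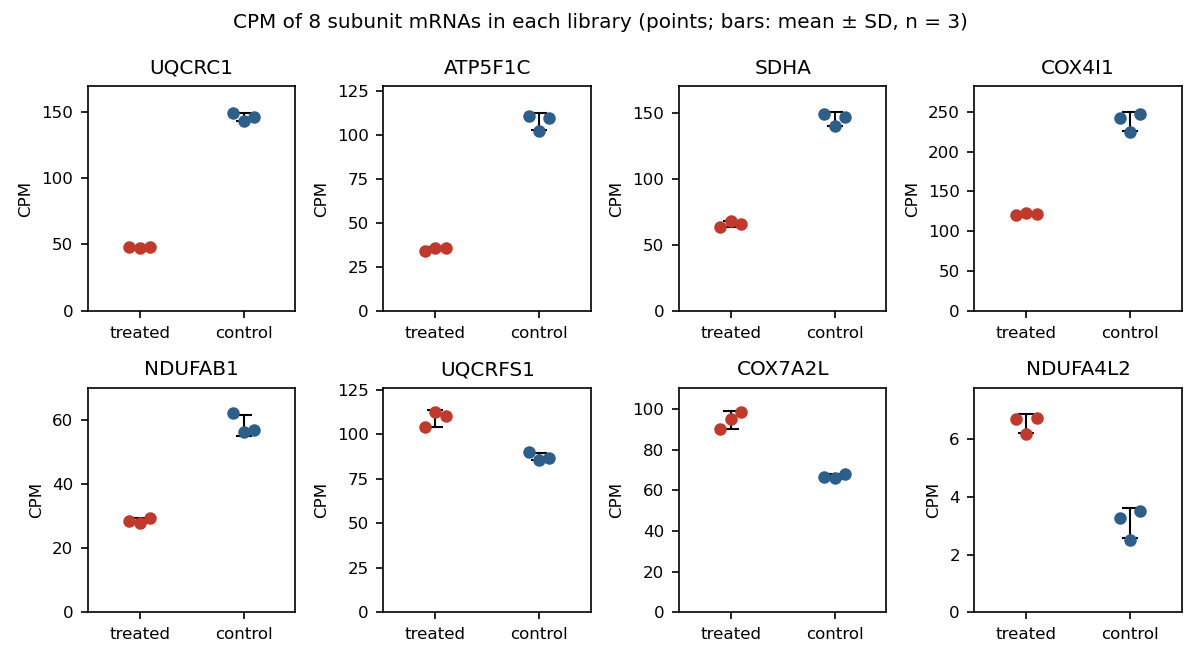
CPM of 8 subunit mRNAs in each library, treated left and control right, with points for libraries and bars for the mean and SD (n = 3). UQCRC1, ATP5F1C, SDHA, COX4I1 and NDUFAB1 are lower and UQCRFS1, COX7A2L and NDUFA4L2 are higher in every treated library.

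In ATP synthase 16 of 18 tested members fell and 2 rose. All 5 subunits of the F1 head fell, with a median log2 fold change of −0.63. ATP5F1C, the gamma subunit that turns as the central shaft (ENSG00000165629, chromosome 10, 7788129 to 7807815), had 34.2, 36.0 and 35.8 CPM in treated libraries, against 111, 102 and 109.6 CPM in control libraries, 3.04-fold lower (−1.61 ± 0.04, adjusted p = 2.94e-16 in edgeR). The alpha subunit ATP5F1A had 167, 169.8 and 169 CPM in treated libraries, against 289.8, 281 and 300.2 CPM in control libraries (−0.79 ± 0.03, adjusted p = 1.17e-13 in edgeR). The catalytic beta subunit ATP5F1B, the most abundant member by CPM, had 382, 396 and 403 CPM in treated libraries, against 563, 546 and 555 CPM in control libraries (−0.50 ± 0.03, adjusted p = 3.52e-11 in edgeR). The delta and epsilon subunits ATP5F1D and ATP5F1E fell by 0.45 and 0.63. The gamma subunit thus stood lowest of the head, and its change was not tested against the others.

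The c ring, the rotor in the membrane, is built from 1 mature protein encoded by 3 genes. ATP5MC2 averaged 63.1 ± 1.15 CPM in treated and 105 ± 3.21 CPM in control cells (log2 fold change −0.73 ± 0.03, adjusted p = 1.89e-12 in edgeR). ATP5MC3 averaged 53.6 ± 0.854 CPM in treated and 89.0 ± 0.425 CPM in control cells (−0.73 ± 0.03, adjusted p = 1.00e-12 in edgeR). ATP5MC1 averaged 34.9 ± 1.27 CPM in treated and 41.8 ± 0.528 CPM in control cells (−0.26 ± 0.04, adjusted p = 8.61e-06 in edgeR). All 3 genes fell. The 4 peripheral stalk genes ATP5PB, ATP5PD, ATP5PF and ATP5PO fell by 0.48, 0.45, 0.29 and 0.12, the last with a call that was lost in 4 of the 6 fits that left out a library. ATP5MJ, a small subunit of the membrane part, rose by 0.21. ATP5MF-PTCD1, at 32.3 ± 1.13 CPM in treated and 16.4 ± 0.550 CPM in control cells (0.97), is a readthrough of ATP5MF and its neighbour, while ATP5MF itself averaged 185 ± 9.03 CPM in treated and 276 ± 8.22 CPM in control cells (−0.57). Reads of their shared exons could not be assigned with certainty. ATP5MGL, with 0.153 ± 0.0982 CPM in treated and 0.164 ± 0.0971 CPM in control cells, was not tested.

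Larger changes were fewer. At least 1.5-fold falls were seen for 25 members and at least 2-fold falls for 7, namely UQCRC1, ATP5F1C, UQCRC2, COX7A1, UQCRB, SDHA and NDUFAB1. These were 29.1% and 8.14% of the 86 members, where 22.4% and 12.6% of all genes tested fell that far, so falls of at least 2-fold were no more frequent among members than over all genes. The 2-fold list depends on the scale. On log2(TPM + 1), UQCRC2, SDHA, NDUFAB1 and COX7A1 were at −0.96, −0.86, −0.99 and −0.33, short of 2-fold. UQCRC1, ATP5F1C and UQCRB stayed past it. When the test itself asked for a change of more than 1.5-fold, 24 members fell and 3 rose, where 16.7% of all genes tested fell and 18.7% rose. Of the 12 members on chromosome 19, 5 fell, 3 rose and 4 did not pass, with a median log2 fold change of −0.11. Of the 74 elsewhere, 58 fell, 9 rose and 7 did not pass, with a median of −0.43. This split was made after the values were seen. The shares over all genes of chromosome 19 were not computed, so the split cannot be read as a trait of the members. Across the 86 members the log2 fold change had a Spearman correlation of 0.10 with GC content and of −0.19 with transcript length, given as a description of genes that share libraries.

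Promoters of many subunit genes are known to hold sites for NRF1 (nuclear respiratory factor 1) and for the ETS factor GABP. In the 250 bases upstream of the start (RefSeq, GRCh38.p14), searched on both strands, the letters GCGCATGC, a core of the NRF1 motif, stood in 13 of the 70 members with a promoter in the table (18.6%), against 3.22% of all 27305 genes and 4.38% of protein-coding genes. The longer form with GC after the core, which was searched first, stood in 3 members (4.29%), ATP5F1C, NDUFB4 and SDHD, against 1.28% of all genes, with medians of −0.78 with and −0.29 without it. The ETS letters CCGGAAGT stood in 12 of the 70 (17.1%), against 4.13% of all genes and 5.91% of protein-coding genes. The GC box GGGCGG stood in 42 of the 70 (60%), against 46.2% of all genes and 63.0% of protein-coding genes. The median log2 fold change was −0.32 with and −0.29 without the NRF1 letters, −0.41 with and −0.29 without the ETS letters, and −0.29 with and −0.39 without the GC box, and no test was made. The windows of 4 members with the NRF1 letters are shown, the 3 of them with the lowest log2 fold change and COX6A1, which did not pass, so they were chosen for their values. Matches to the NRF1 and ETS letters on either strand are in capitals. ATP5F1C lies at chr10:7787927-7788176, NDUFB4 at chr3:120596086-120596335 and COX6A1 at chr12:120437863-120438112, all on the plus strand, and SDHB at chr1:17054033-17054282 on the minus strand.
ATP5F1C: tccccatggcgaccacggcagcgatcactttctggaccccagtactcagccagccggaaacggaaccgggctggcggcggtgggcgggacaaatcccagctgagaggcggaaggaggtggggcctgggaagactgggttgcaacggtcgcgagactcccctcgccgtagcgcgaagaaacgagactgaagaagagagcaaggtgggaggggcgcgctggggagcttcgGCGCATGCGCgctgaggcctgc
SDHB: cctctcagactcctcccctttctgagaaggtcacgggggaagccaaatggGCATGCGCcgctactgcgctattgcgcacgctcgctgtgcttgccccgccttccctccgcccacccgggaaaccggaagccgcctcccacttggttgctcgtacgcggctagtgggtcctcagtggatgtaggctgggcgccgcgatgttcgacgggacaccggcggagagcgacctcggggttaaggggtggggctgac
NDUFB4: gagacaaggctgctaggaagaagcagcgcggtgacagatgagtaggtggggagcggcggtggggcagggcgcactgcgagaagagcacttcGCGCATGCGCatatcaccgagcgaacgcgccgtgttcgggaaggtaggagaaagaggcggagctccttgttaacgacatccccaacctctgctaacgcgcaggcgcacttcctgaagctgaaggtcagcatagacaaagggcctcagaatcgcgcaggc
COX6A1: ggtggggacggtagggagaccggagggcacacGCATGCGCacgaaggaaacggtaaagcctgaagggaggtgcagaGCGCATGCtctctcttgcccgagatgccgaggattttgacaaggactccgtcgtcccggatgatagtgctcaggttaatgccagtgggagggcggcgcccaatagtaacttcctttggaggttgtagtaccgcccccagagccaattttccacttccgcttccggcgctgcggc
ATP5F1C, SDHB and NDUFB4 fell by 1.61, 0.85 and 0.78 on the log2 scale, and COX6A1 had a log2 fold change of 0.06.

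A gene's counts can lie in transcripts that code for the subunit or in others that do not, such as those with a retained intron or an early stop codon. The share of a gene's counts in transcripts not annotated as coding could be tested for 64 members. It was higher in treated cells for 24 of them (37.5%) and lower for 1 (limma on the log2 ratio of both parts, Benjamini-Hochberg adjusted p under 0.05 over 9567 genes), where it was higher for 11.9% and lower for 6.93% of all genes in that test. Of the 24, 21 had fallen as a whole gene, 2 had risen and 1 had not passed. NDUFS4, an accessory subunit needed for a stable NADH-oxidising arm, had 25.6%, 23.8% and 27.1% in treated libraries, against 7.5%, 7.34% and 7.66% in control libraries (adjusted p = 0.000670 in limma). Its whole-gene level, 32.7 ± 0.456 CPM in treated and 31.8 ± 0.692 CPM in control cells, did not pass (adjusted p = 0.362 in edgeR).

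The 24 also held members that had fallen as whole genes by different amounts. The share for NDUFAB1 was 17.9%, 14.1% and 16.8% in treated libraries, against 2.32%, 3.42% and 2.81% in control libraries (adjusted p = 0.00151 in limma). For UQCRC1 it was 13.7%, 19.9% and 13.7% in treated libraries, against 4.13%, 3.35% and 4.4% in control libraries (adjusted p = 0.00444 in limma). SDHC had 36.7%, 37.7% and 34.8% in treated libraries, against 14.2%, 15.8% and 16.4% in control libraries (adjusted p = 0.00135 in limma). NDUFA2, an accessory subunit with a thioredoxin-like fold, had 41.5%, 38.7% and 35.2% in treated libraries, against 11.97%, 11.96% and 11.9% in control libraries (adjusted p = 0.000752 in limma). In none of these 4 genes did the groups overlap. SDHA, COX4I1 and ATP5F1C were also among the 24, at means of 32.5%, 10.98% and 9.22% in treated cells, against 19.8%, 4.74% and 3.08% in control cells.

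Single transcripts were then compared by the class that GENCODE 29 gives them, with edgeR over all 95285 transcripts tested. Of the 257 coding transcripts of members, 78 fell and 19 rose, where 18.4% of the coding transcripts of all protein-coding genes fell and 19.5% rose. Of the 49 member transcripts annotated as targets of nonsense-mediated decay, the pathway that removes mRNAs with an early stop codon, 11 rose and 6 fell, where 18.7% of that class over all protein-coding genes rose and 8.04% fell. The share that rose, 22.4%, was near that background. Retained-intron transcripts of members, 111 in all, rose in 9 cases and fell in 12, where the background was 8.11% and 13.4%. Of the 60 processed transcripts of members, 6 rose and 7 fell, where the background was 15.5% and 9.55%. In 7 genes (COX4I1, NDUFA11, NDUFA13, NDUFAB1, NDUFB4, NDUFS4 and UQCRH) a transcript annotated for decay rose while a coding transcript fell. These were 21.9% of the 32 members with tested transcripts of both classes, where the same held for 6.94% of the 4123 protein-coding genes with both; the pattern was chosen after the values were seen and no test was made. In NDUFA13 the most abundant coding transcript rose and a minor one fell. How reads were divided between transcripts of a gene is an estimate whose error the tables do not give.

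The reading frames of 3 such transcripts show where they leave the coding frame. Each sequence is annotated coding sequence from GENCODE 29 (GRCh38, transcript strand), beginning 12 bases before the frame departs from that of the coding transcript, with the stop codon in capitals. NDUFS4 spans chr5:53603519-53646279 on the plus strand, NDUFAB1 spans chr16:23595582-23596134 on the minus strand and UQCRH spans chr1:46309116-46310234 on the plus strand, introns included in the span and left out of the sequence.
NDUFS4: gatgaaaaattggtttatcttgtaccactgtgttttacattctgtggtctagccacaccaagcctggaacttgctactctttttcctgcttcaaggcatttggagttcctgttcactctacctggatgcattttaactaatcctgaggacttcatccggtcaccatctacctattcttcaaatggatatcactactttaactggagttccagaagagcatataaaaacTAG
NDUFAB1: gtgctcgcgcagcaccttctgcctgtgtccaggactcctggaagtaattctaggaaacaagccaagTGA
UQCRH: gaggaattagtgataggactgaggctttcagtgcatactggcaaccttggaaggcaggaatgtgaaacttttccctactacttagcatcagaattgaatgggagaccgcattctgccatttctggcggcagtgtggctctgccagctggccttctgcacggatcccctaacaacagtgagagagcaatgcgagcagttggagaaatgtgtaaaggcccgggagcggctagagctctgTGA
The stop codon lies 200 bases before the last exon junction in NDUFS4, 464 in NDUFAB1 and 82 in UQCRH. The NDUFS4 transcript had 6.81, 7.07 and 8.20 CPM in treated libraries, against 1.41, 2.03 and 2.12 CPM in control libraries (log2 fold change 1.99 ± 0.20, adjusted p = 0.000998 in edgeR over transcripts), while the main coding transcript had 22.2, 23.8 and 22.2 CPM in treated libraries, against 26.3, 26.0 and 27.0 CPM in control libraries (−0.22 ± 0.05, adjusted p = 0.0235). The NDUFAB1 transcript had 4.92, 3.82 and 4.83 CPM in treated libraries, against 1.36, 1.83 and 1.52 CPM in control libraries (1.53 ± 0.19, adjusted p = 0.00228 in edgeR). Its coding transcript had 20.9, 21.7 and 22.5 CPM in treated libraries, against 56.2, 50.7 and 51.5 CPM in control libraries (−1.28 ± 0.06, adjusted p = 4.69e-05 in edgeR). The 2 kinds of transcript thus moved in opposite directions in both genes, without overlap between the groups.

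UQCRH, a small acidic subunit that docks cytochrome c, had 24.5, 23.8 and 22.8 CPM of its decay-annotated transcript in treated libraries, against 9.38, 9.07 and 9.11 CPM in control libraries (log2 fold change 1.37 ± 0.06, adjusted p = 3.61e-05 in edgeR). Its coding transcript had 233, 250.4 and 242 CPM in treated libraries, against 290, 287 and 294 CPM in control libraries (−0.27 ± 0.03, adjusted p = 0.00185 in edgeR). In both groups the coding transcript was the more abundant of the pair. Decay-annotated transcripts of NDUFA13, NDUFV1 and COX7A2L rose as well, by 1.75, 2.31 and 1.997 on the log2 scale. These examples were picked from those that rose. Of the 49 decay-annotated transcripts of members, 6 fell (12.2%), and the share that rose was near that of all protein-coding genes.

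**Figure D4:**
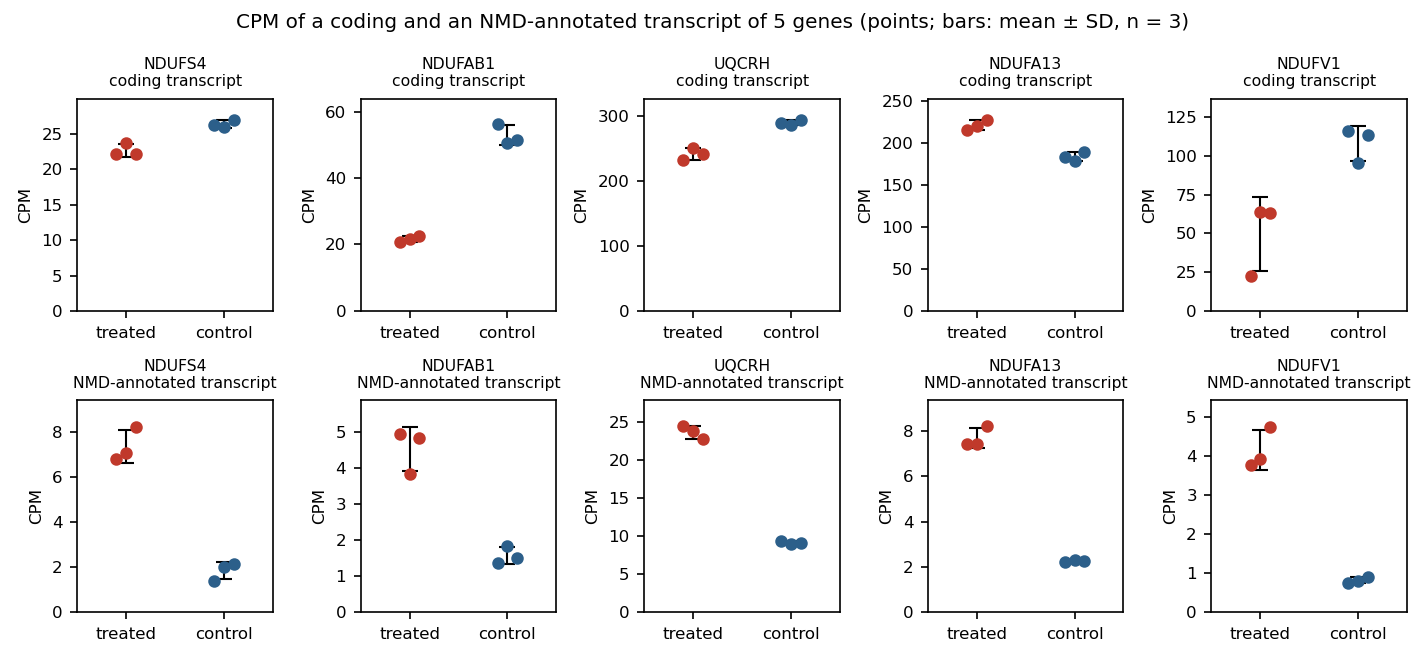
CPM of the most abundant coding transcript (upper row) and of a transcript annotated for nonsense-mediated decay (lower row) of 5 genes, treated left and control right; points are libraries and bars the mean and SD (n = 3). The decay-annotated transcript is higher in every treated library of all 5 genes, for NDUFS4 at 6.81 to 8.20 CPM in treated and 1.41 to 2.12 CPM in control libraries. The genes were picked from those in which this transcript rose, and 6 of the 49 decay-annotated transcripts of members fell.

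Other genes serve the chain without being part of it. Assembly factors, which build the complexes and put in their cofactors, were counted over 62 gene identifiers (SCO2 has 2): 38 rose (61.3%, where 34.9% of all genes tested rose), 12 fell and 12 did not pass, with a median log2 fold change of 0.29. Rises of at least 1.5-fold were seen for 17 of the 62, and for 5341 of all 22580 genes tested. Many of the rises were thus small. UQCC4, an assembly factor of complex III, had 129, 129.8 and 138 CPM in treated libraries, against 28.1, 28.0 and 30.1 CPM in control libraries (2.20 ± 0.04, adjusted p = 8.08e-18 in edgeR), while UQCRC1 and UQCRC2 of that complex fell. NDUFAF4, for complex I, had 35.9, 35.8 and 35.4 CPM in treated libraries, against 12.6, 11.8 and 13.4 CPM in control libraries (1.501 ± 0.05, adjusted p = 1.80e-14 in edgeR). COA7, for complex IV, averaged 226 ± 2.56 CPM in treated and 84.1 ± 3.42 CPM in control cells (1.42). Among those that fell were PET100, for complex IV, at 14.95 ± 0.517 CPM in treated and 38.7 ± 1.84 CPM in control cells (−1.37), SDHAF1, for complex II (−0.78), and NDUFAF7, for complex I (−0.37).

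Among the 26 tested regulators of mitochondrial gene expression, 16 rose, 5 fell and 5 stayed short of the threshold. The share that rose was 61.5%, where 34.9% of all genes tested rose. The median for this list was 0.35 on the log2 scale. When the test asked for a change of more than 1.5-fold, 5 of the 26 rose and 0 fell. At that size 18.7% of all genes tested rose and 16.7% fell, so rises were about as frequent among regulators as over all genes. TWNK, the helicase of mitochondrial DNA, averaged 219.6 ± 5.59 CPM in treated and 86.1 ± 3.11 CPM in control cells (1.35). NFE2L1, a transcription factor distinct from NRF1, was counted in the list, though nothing here ties it to mitochondrial genes. The list was thus broader than its name. NFE2L1 averaged 783 ± 1.35 CPM in treated and 366 ± 12.8 CPM in control cells (1.096). The coactivator PPRC1 averaged 178 ± 1.81 CPM in treated and 104 ± 2.31 CPM in control cells (0.78). NRF1, whose letters were searched above, had 15.2, 15.1 and 15.3 CPM in treated libraries, against 19.5, 19.1 and 18.05 CPM in control libraries (−0.32 ± 0.05, adjusted p = 5.11e-05 in edgeR), a direction that turned in TPM. POLRMT, the mitochondrial RNA polymerase, and HCFC1 fell by 0.25 and 0.18, and HCFC1 turned to 0.11 when GC content and length were taken into account.

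The 13 mRNAs encoded in mitochondrial DNA were split, with 5 that rose, 4 that fell and 4 that did not pass. Their shares, 38.5% higher and 30.8% lower, were near those of all genes tested (34.9% and 34.5%). MT-ND2 averaged 211 ± 2.65 CPM in treated and 109 ± 2.48 CPM in control cells (0.96), and MT-ND3 and MT-ND4L rose by 0.58 and 0.43. MT-ND6, at 31.0 ± 1.15 CPM in treated and 58.4 ± 6.12 CPM in control cells, fell by 0.91, MT-CO2 by 0.69 and MT-ND5 by 0.51. Without control replicate 2, 8 of the 13 rose.

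Of 24 electron carriers, enzymes of ubiquinone synthesis and other dehydrogenases, 7 rose, 8 fell and 9 did not pass, and these shares too, 29.2% and 33.3%, were near those of all genes tested. DHODH, which feeds electrons from pyrimidine synthesis to ubiquinone, averaged 66.0 ± 0.633 CPM in treated and 33.3 ± 0.302 CPM in control cells (0.99), and COQ5, a methyltransferase of ubiquinone synthesis, 48.4 ± 1.01 CPM in treated and 24.9 ± 0.158 CPM in control cells (0.95). GPD2, the glycerol phosphate dehydrogenase, averaged 44.4 ± 0.321 CPM in treated and 104 ± 4.23 CPM in control cells (−1.23), and ETFB, of the electron transfer flavoprotein, 44.2 ± 0.631 CPM in treated and 93.3 ± 2.38 CPM in control cells (−1.08). AOX1, an aldehyde oxidase, was counted in the list and among the 7 that rose, though it does not feed electrons to the chain. It had the highest log2 fold change of the list, 2.68. COQ8A fell by 0.43. A last list held the ATP synthase inhibitor, adenine nucleotide and phosphate carriers and uncouplers, and also HIGD1A and HIGD2A, which are none of these. Of its 9 tested genes, 7 fell (77.8%, where 34.5% of all genes tested fell) and 2 did not pass. SLC25A5, which exchanges ADP for ATP across the inner membrane, had 138, 141 and 145 CPM in treated libraries, against 324, 315 and 321 CPM in control libraries (−1.18 ± 0.03, adjusted p = 3.41e-16 in edgeR). The phosphate carrier SLC25A3 fell by 0.49 and SLC25A6 by 0.25.

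**Figure D5:**
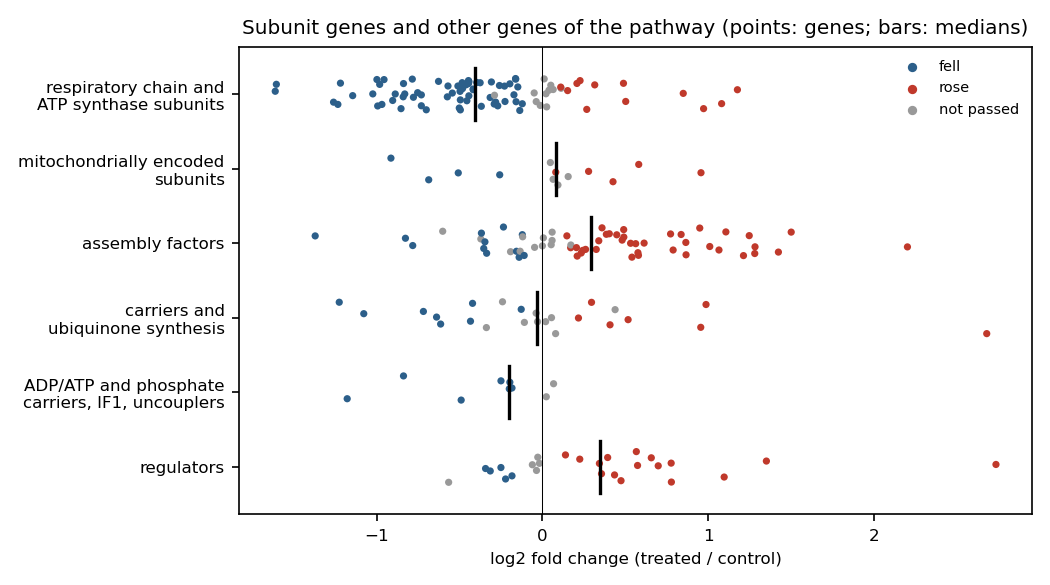
Log2 fold change, treated over control, of the tested subunit genes and of 5 other lists of the pathway; points are genes, coloured as fell, rose or not passed in edgeR, and bars are medians. The medians were −0.41 for the subunits, 0.08 for mitochondrially encoded subunits, 0.29 for assembly factors, −0.03 for carriers and ubiquinone synthesis, −0.20 for the ADP/ATP and phosphate carrier list and 0.35 for regulators.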

How the data were processed

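Total RNA of 6 cultures was sequenced on Illumina. Per the file headers, the authors deposited for each library a table of transcripts with estimated counts and TPM. The tools kallisto 0.45.0 and DESeq2 1.30.0 are listed in the submitters' processing notes, with no role given; the index and the genome build are not given in the sources used here, nor is strandedness. Of 244939 transcripts, 203436 matched GENCODE 29 by identifier; the rest, 4.86% to 5.13% of the counts per library, were left out, so the level of a gene can be a part of its total. The deposited expected counts were summed to genes and rounded, genes were filtered with filterByExpr (minimum count 10, minimum total 15) and scaled by TMM, and groups were compared with the two-sided quasi-likelihood test of edgeR 4.0.16 (Benjamini-Hochberg over all genes tested, threshold 0.05). CPM of genes, transcripts and complexes use the TMM-scaled library size. The summed CPM of marker lists use the matched counts of each library, and the floor uses its total estimated counts, both without TMM. The deposited TPM were summed to genes unchanged. The ratio of counts in transcripts not annotated as coding to those in coding transcripts (1 added to each) was tested with limma 3.58.1, for genes with at least 10 counts in each part. SE belong to log2 fold changes and SD to 3 libraries. Both tests were checked on simulated counts in which few genes changed, in both directions. In the data 69.4% of all genes tested passed, a setting that the check does not cover. Estimated counts carry counting error and the error of dividing reads between transcripts; intervals and the floor of 3 counts cover counting error only. With 3 against 3 libraries an exact permutation test cannot go below 0.1, so none was used.

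The members and lists were chosen with earlier results of these data known. Named with values are, per complex, the top 3 and bottom 3 members by log2 fold change among those past the threshold, a set of genes fixed by name, and, for each other list, up to 3 that rose and 3 that fell with the lowest adjusted p; further members are named after their values were seen. Alternatives were DESeq2 1.42.0, library totals alone, other filters, offsets for length and GC content, limma on log2(TPM + 1) and log2(TPM + 0.1), coding transcripts alone, a 1.5-fold test and each library left out. The transcript fit, summed TPM and the addition of pseudogene copies were chosen after seeing the data. So was the core of the NRF1 motif, taken up after the result of the longer form was known. One member is counted but its own values are not reported here.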

Additional observations from a re-analysis of the deposited data

How the results depend on the processing

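No paired analysis was possible because the labels give replicate numbers 1 to 3 to control and 4 to 6 to treated cultures, with none shared. Of the 86 member calls, 81 were the same in DESeq2, 77 with library totals alone, 71 with limma on TPM at either pseudocount, where 14 were lost (NDUFA1, NDUFA4, NDUFA8, NDUFA11, NDUFB3, NDUFB8, NDUFC2, NDUFS6, NDUFV1, UQCRH, COX5A, COX5B, COX8A and ATP5PO), and 82 to 86 when a library was left out. None of the members named here turned. HCFC1 turned to 0.11 once GC content and length were offset, and NRF1 to 0.0474 with limma on log2(TPM + 1) and 0.0534 on log2(TPM + 0.1). The causes were not tested.

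A test for a change of more than 1.5-fold left 24 members that fell and 3 that rose. Falls numbered 10 in complex I, 2 in complex II, 5 in complex III, 3 in complex IV and 4 in complex V. In the other lists it left 2 falls and 16 rises of 62 assembly factors. For 24 genes of carriers and ubiquinone synthesis it left 3 and 3, and for 13 mitochondrially encoded subunits 1 and 1. For 26 regulators it left 0 and 5, and for 9 genes of the adenine nucleotide and phosphate carrier list 1 fall. Over all genes tested, 16.7% fell and 18.7% rose at that size. With limma on log2(TPM + 1) and log2(TPM + 0.1), 5 and 6 assembly factors, 1 and 1 regulators and 4 and 4 of the carrier list fell. With the GC and length offset 3 regulators fell, and with library totals alone 1 of the carrier list rose.

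The log2 ratios of summed CPM were −0.32, −0.83, −0.61, −0.26 and −0.52 for complexes I to V. They were −0.25, −0.75, −0.54, −0.19 and −0.45 with library totals alone and −0.22, −0.64, −0.48, −0.20 and −0.40 in summed TPM. Complex II was at −0.94 over coding transcripts alone and −0.77 with pseudogene copies added. Members with a lower noncoding share numbered 2 with 5 added to each part and 3 with at least 50 counts in each part. When a library was left out, 60 to 63 members fell and 12 to 14 rose, 16 to 21 had a higher and 0 to 1 a lower noncoding share, 8 to 10 decay-annotated transcripts rose, 4 to 6 of them fell, 65 to 74 coding transcripts fell, and 4 to 8 mitochondrially encoded mRNAs rose. Members below 1 CPM (COX7A1, COX6B2, UQCRHL and ATP5MGL) are limited by depth.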

Other observations

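PPARGC1A, a coactivator of mitochondrial gene expression named here after its values were seen, had 7.59, 7.83 and 7.53 CPM in treated libraries, against 1.27, 1.03 and 1.14 CPM in control libraries (log2 fold change 2.74 ± 0.12, adjusted p = 4.64e-13 in edgeR). It had the highest log2 fold change of the 26 regulators tested, in the same treated libraries in which 63 of 86 subunit mRNAs were lower. CYCS, cytochrome c, which links complexes III and IV, averaged 208 ± 6.52 CPM in treated and 157 ± 5.49 CPM in control cells (0.41 ± 0.03, adjusted p = 4.87e-09 in edgeR) and so rose between complexes most of whose members fell.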
